A study of Mus musculus with 8 samples.

Results

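The genes described here build, desaturate and export lipids: 36 genes of cholesterol synthesis, its regulators, fatty acid synthesis, fatty acid desaturation and elongation, and cholesterol efflux, of 18193 genes tested. A gene was included when the platform annotation named it on at least 1 probe set, and the probe set that was brightest on average over the arrays stood for it. All 36 genes had such a probe set. They were chosen by what they encode and not by their values, although earlier results of these arrays were known when they were chosen.

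The values come from 8 Affymetrix mouse arrays in 4 groups of 2: wild-type (WT) and IkL/L thymocytes, each with DMSO or with GSI. IkL/L cells are labelled as Ikaros deficient; Ikaros is a zinc finger transcription factor of lymphocytes encoded by Ikzf1. GSI is the gamma-secretase inhibitor MRK-003, given at 5 mM as labelled for 16 h, and DMSO is its vehicle; gamma-secretase releases the intracellular part of Notch receptors. In every group thymocytes depleted of lineage-positive cells had been grown on OP9 DL1, a stromal line that displays the Notch ligand Delta-like 1, and DN3 cells (Lin-CD44-CD25+ T cell precursors) were sorted from that culture. The labels give neither the age of the mice nor whether the 2 samples of a group had separate mice or cultures behind them; the p-values therefore cover only how far these samples spread, which may be technical.

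Cells make cholesterol from acetyl-CoA through the mevalonate pathway, which runs to squalene, and through a series of sterol steps that turn squalene into cholesterol. Fatty acids are built from the same acetyl-CoA by a carboxylase and a synthase, then desaturated and lengthened. Both branches are driven by the SREBP transcription factors, which are held in the endoplasmic reticulum by Scap and the Insig proteins when sterols are plentiful and are cut and released when sterols run low; liver X receptors respond to oxidised sterols and raise efflux genes. In lymphocytes these genes are known to be used heavily by growing and dividing cells.

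Promoter sequence of 6 members is shown because the pathway is a textbook case of promoters on which NF-Y and Sp1 work beside SREBP, and because these genes span those that fell, those that rose and 1 of the pathway's entry enzymes. The sequences are from RefSeq (GRCm38.p6), are written 5′ to 3′ on the strand of the gene, end at the last base before its annotated start and are 200 bases long. Capitals mark matches, on either strand, to CCAAT (the NF-Y box), GGGCGG (the Sp1 box), CACGTG (the E-box) or TCACNCCAC (the sterol regulatory element). Hmgcs1 lies at chr13:119690151-119690350 on the plus strand, Idi1 at chr13:8885406-8885605 (plus), Cyp51 at chr5:4104698-4104897 (minus), Fasn at chr11:120824548-120824747 (minus), Acss2 at chr2:155517843-155518042 (plus) and Dhcr7 at chr7:143830014-143830213 (plus; the last of 3 annotated windows).
Hmgcs1: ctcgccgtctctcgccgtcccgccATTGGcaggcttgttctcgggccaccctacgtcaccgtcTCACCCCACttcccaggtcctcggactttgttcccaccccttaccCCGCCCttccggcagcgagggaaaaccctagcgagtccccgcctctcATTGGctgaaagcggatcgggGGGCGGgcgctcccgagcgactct
Idi1: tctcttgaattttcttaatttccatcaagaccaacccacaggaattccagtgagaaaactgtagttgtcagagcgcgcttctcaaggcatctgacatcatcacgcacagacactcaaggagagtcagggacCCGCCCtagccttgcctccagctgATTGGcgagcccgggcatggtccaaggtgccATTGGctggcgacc
Cyp51: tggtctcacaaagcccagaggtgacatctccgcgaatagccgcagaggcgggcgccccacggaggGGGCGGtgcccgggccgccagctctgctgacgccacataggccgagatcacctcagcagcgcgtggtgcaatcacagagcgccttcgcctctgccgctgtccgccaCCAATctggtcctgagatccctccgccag
Fasn: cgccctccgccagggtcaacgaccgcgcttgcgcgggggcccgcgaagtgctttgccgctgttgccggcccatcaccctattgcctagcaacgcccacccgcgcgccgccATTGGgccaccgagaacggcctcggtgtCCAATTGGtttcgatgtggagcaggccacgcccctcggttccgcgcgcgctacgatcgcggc
Acss2: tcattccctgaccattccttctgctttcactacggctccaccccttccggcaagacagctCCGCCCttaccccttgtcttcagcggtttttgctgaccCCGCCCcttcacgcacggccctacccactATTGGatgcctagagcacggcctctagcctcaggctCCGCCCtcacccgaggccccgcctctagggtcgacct
Dhcr7: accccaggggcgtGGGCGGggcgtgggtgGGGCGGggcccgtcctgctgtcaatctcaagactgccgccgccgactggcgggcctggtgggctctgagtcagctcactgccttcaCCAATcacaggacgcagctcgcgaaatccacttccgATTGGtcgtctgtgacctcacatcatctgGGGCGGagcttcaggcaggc
Each of these 6 stretches holds at least 1 CCAAT match, and in Fasn the run CCAATTGG holds a pair of overlapping matches, 1 on each strand. Over the 250 bases before the start, CCAAT was found in 22 of the 28 members that have an entry in the table (78.6%), against 39.4% of the 14452 tested genes with an entry. The Sp1 box was found in 23 of 28 (82.1%, against 53.4%), the E-box in 7 (25%, against 8.73%) and the sterol regulatory element in 1, Hmgcs1 (3.57%, against 1.27%). These motifs were chosen after the windows had been looked at, and a match describes letters and not a bound site. Sqle, Stard4, Fads1, Fdft1, Scd2, Fdps, Scd1 and Abcg1 had no entry.

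The first question was what GSI did to these genes. With the WT and IkL/L responses averaged, 10 of the 36 genes fell: Pmvk, Idi1 and Fdps of the mevalonate steps, Lss, Cyp51, Hsd17b7 and Sc5d of the sterol steps, the carboxylase Acaca and the synthase Fasn of fatty acid synthesis, and the desaturase Scd1. Scd1 fell 4.24-fold, Fasn 2.48-fold and Idi1 2.29-fold. Acss2, which makes acetyl-CoA from acetate, rose 2.48-fold, and Dhcr7, the last enzyme of cholesterol synthesis, rose 1.99-fold. The other 24 genes did not pass the test, 20 of the 36 had an unadjusted p below 0.05, and 28 of the 36 differences were below 0. Over all 18193 genes, 6082 had an unadjusted p below 0.05 by limma and 9185 differences were below 0. The threshold was a Benjamini-Hochberg adjusted p of 0.05 over all genes, by which 12.5% of all genes fell and 10.8% rose, so the members' 27.8% lower stands beside 12.5% and their 5.56% higher beside 10.8%. Calls were more common among brighter genes, and every member was at or above percentile 57.8 of level. With only the 9096 genes above the median level tested, 12 of the 36 members fell and 3 rose. Of those 9096 genes, 24.3% fell and 20.4% rose, so the excess of falling members was smaller there. The median log2 difference was -0.26 for the members and 0.00 for all genes. In 15 of the 36 members both GSI arrays lay below both DMSO arrays within each genotype, against 2838 of all 18193 genes (15.6%). In 4 of the 36 both lay above within each genotype, against 2501 of 18193 (13.7%). Fewer cells of a type and less RNA per cell cannot be told apart in such bulk samples.

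Within the genotypes fewer genes passed. In WT, 3 of 36 fell (8.33%, against 4.16% of all genes): Idi1, Fasn and Scd1. In IkL/L, 8 fell (22.2%, against 9.09%): those 3 with Pmvk, Lss, Cyp51, Sc5d and Acaca. Acss2 and Dhcr7 rose in both, where 2.31% of all genes rose in WT and 7.70% in IkL/L. The median difference of the members was -0.23 in WT, where all genes had 0.04, and -0.38 in IkL/L, where all genes had -0.05. The WT counts rest on few arrays: without WT DMSO replicate 1, or without WT DMSO replicate 2, no member passed in either direction by limma, with 5 and 9 lower members and 2 and 3 higher ones at an unadjusted p below 0.05. Those fits called 9 and 186 of all 18193 genes in WT, so a count of 0 among 36 is near the background. Without WT GSI replicate 1 there were 7 lower members, beside 5.47% of all genes lower. The IkL/L count of lower members was 3 without IkL/L DMSO replicate 1, 4 without IkL/L DMSO replicate 2, 3 without IkL/L GSI replicate 1 and 2 without IkL/L GSI replicate 2, where 2.73%, 4.05%, 5.14% and 3.17% of all genes were lower. With each of the 8 arrays left out in turn, the IkL/L calls of Idi1, Acss2 and Fasn were kept every time, that of Scd1 in 7 of 8, those of Pmvk and Dhcr7 in 5, those of Lss, Sc5d and Acaca in 4 and that of Cyp51 in 2. The WT calls of Idi1, Dhcr7 and Scd1 were kept in 6 of 8, that of Fasn in 4 and that of Acss2 in 1. Leaving out an array of the other genotype left a genotype's difference itself unchanged, so those fits tested its calls less. The WT calls of Idi1, Dhcr7 and Scd1 were lost without either WT DMSO array. In the average every member's call but those of Fdps and Hsd17b7 was kept all 8 times.

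**Figure D1:**
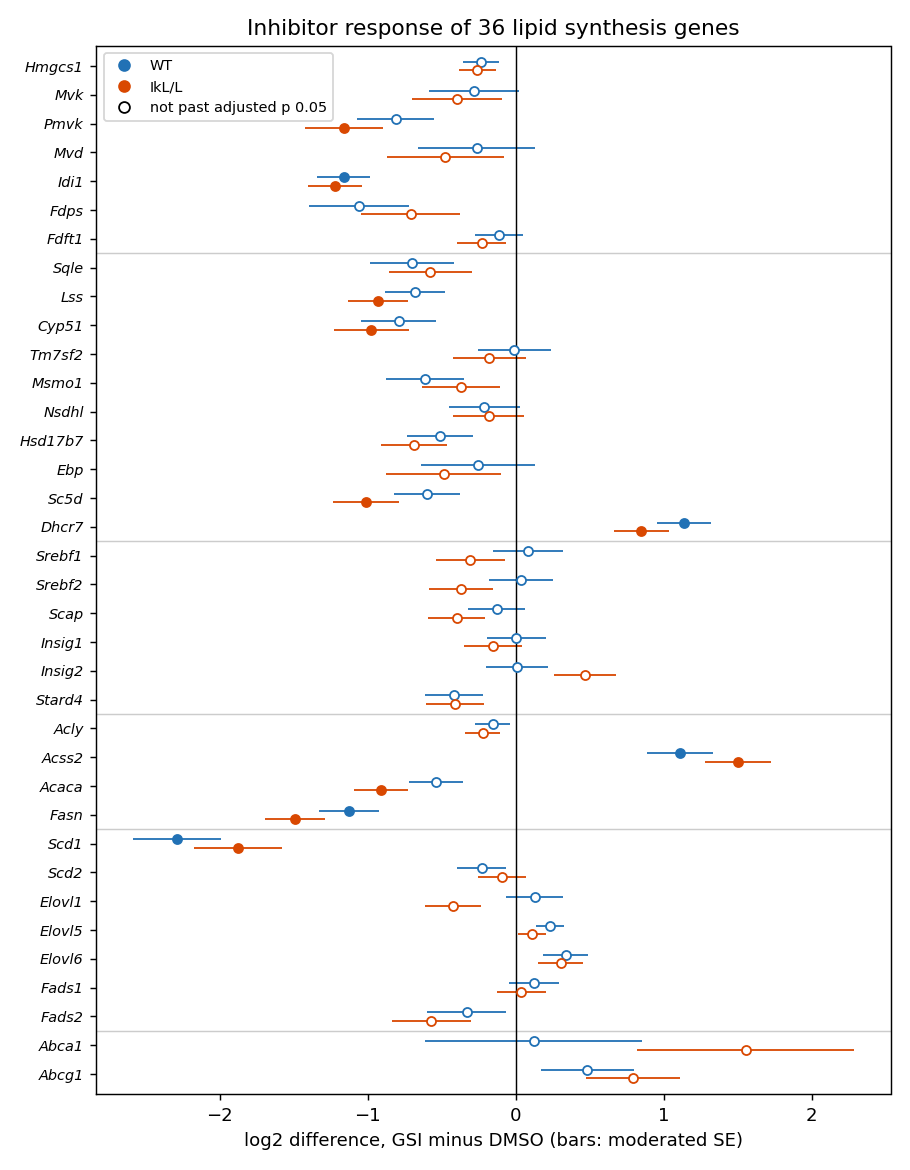
Difference between GSI and DMSO in log2 units (x axis) for each of the 36 genes, ordered by role, in WT (blue) and IkL/L (orange); bars are moderated standard errors and filled points passed an adjusted p of 0.05. Scd1, Fasn and Idi1 lie far to the left in both genotypes, and Acss2 and Dhcr7 are the only filled points to the right of 0.

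The 7 genes of the mevalonate steps had a median difference of -0.37 in the average; 3 fell, 4 did not pass and none rose. Idi1, the isomerase that interconverts the isoprenoid building blocks, was at log2 levels of 11.98 and 11.84 under DMSO against 10.97 and 10.53 under GSI in WT, and 12.00 and 11.89 against 10.87 and 10.57 in IkL/L. All 4 GSI arrays were below all 4 DMSO arrays, and within a treatment the genotypes overlapped. Idi1 fell by 1.19 on the log2 scale in the average (SE 0.13, adjusted p = 0.000586), by 1.16 in WT (adjusted p = 0.0141) and by 1.22 in IkL/L (adjusted p = 0.00351).

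Pmvk, the kinase that phosphorylates mevalonate phosphate, read 8.999 and 8.85 under DMSO against 8.32 and 7.90 under GSI in WT, and 9.14 and 8.55 against 7.49 and 7.87 in IkL/L. The treatments did not overlap, and Pmvk fell by 0.99 in the average (SE 0.19, adjusted p = 0.00639). Fdps, which makes farnesyl diphosphate, read 9.42 and 9.30 under DMSO against 8.82 and 7.79 under GSI in WT, and 9.81 and 9.22 against 8.78 and 8.83 in IkL/L. WT GSI replicate 2 was the lowest array for Fdps, well below the other WT GSI array. Fdps fell by 0.89 (SE 0.24, adjusted p = 0.0293), but the call was lost without WT DMSO replicate 1 (adjusted p = 0.0851), WT DMSO replicate 2 (0.0626), IkL/L DMSO replicate 1 (0.117), IkL/L GSI replicate 1 (0.0915) or IkL/L GSI replicate 2 (0.0901), and over every alternative tried its adjusted p lay between 0.000195 and 0.843.

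The other mevalonate genes did not pass. Hmgcs1, the synthase that opens the pathway, had a difference of -0.25 (SE 0.09, adjusted p = 0.0809) and was among the brightest genes of the array, between 12.44 and 13.03. The kinase Mvk had -0.34 (SE 0.21), the decarboxylase Mvd -0.37 (SE 0.28) and the squalene synthase Fdft1 -0.17. For Mvk and Mvd the WT GSI arrays lay far apart, at 7.72 and 6.79 and at 7.85 and 6.89.

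Of the 10 genes of the sterol steps, 4 fell, Dhcr7 rose and 5 did not pass, with a median of -0.55 in the average. Cyp51, the lanosterol demethylase, was at 9.31 and 9.13 under DMSO against 8.78 and 8.08 under GSI in WT, and 9.56 and 9.23 against 8.48 and 8.36 in IkL/L. All GSI arrays were below all DMSO arrays, and Cyp51 fell by 0.88 (SE 0.18, adjusted p = 0.00897). Lss, the cyclase that forms lanosterol, was at 9.96 and 9.51 under DMSO against 9.14 and 8.97 under GSI in WT, and 10.16 and 9.94 against 9.13 and 9.11 in IkL/L. Its treatments did not overlap, and it fell by 0.81 (SE 0.14, adjusted p = 0.00494). Sc5d, a sterol desaturase, was at 9.48 and 9.20 under DMSO against 8.996 and 8.48 under GSI in WT, and 9.58 and 9.40 against 8.54 and 8.42 in IkL/L. It too separated the treatments on all arrays, with a fall of 0.80 (SE 0.16, adjusted p = 0.00746). Hsd17b7, a sterol ketoreductase, ranged from 8.49 to 9.05 under DMSO and from 7.97 to 8.20 under GSI and fell by 0.60 (SE 0.16, adjusted p = 0.0259). The Hsd17b7 call was lost without WT DMSO replicate 1 (adjusted p = 0.077), WT DMSO replicate 2 (0.0565), IkL/L DMSO replicate 1 (0.111), IkL/L GSI replicate 1 (0.0936) or IkL/L GSI replicate 2 (0.0607); its adjusted p ranged from 0.00505 to 0.369 over the alternatives.

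Dhcr7 went the other way from the sterol genes before it. This reductase, which makes cholesterol from its last precursor, was at 9.40 and 9.51 under DMSO against 10.45 and 10.73 under GSI in WT, and 9.37 and 9.46 against 10.10 and 10.43 in IkL/L. The 4 DMSO arrays lay close together and all GSI arrays were higher. Dhcr7 rose by 0.99 in the average (SE 0.13, adjusted p = 0.00129), by 1.14 in WT (adjusted p = 0.0157) and by 0.85 in IkL/L (adjusted p = 0.0166), and it has 1 probe set. The 5 sterol genes that did not pass all had differences below 0. Sqle, the squalene epoxidase, had -0.64 (SE 0.20, adjusted p = 0.0518), the oxidase Msmo1 -0.49 (SE 0.19, adjusted p = 0.0993) and the isomerase Ebp -0.37 (SE 0.27). The dehydrogenase Nsdhl had -0.20 and the reductase Tm7sf2 -0.10.

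**Figure D2:**
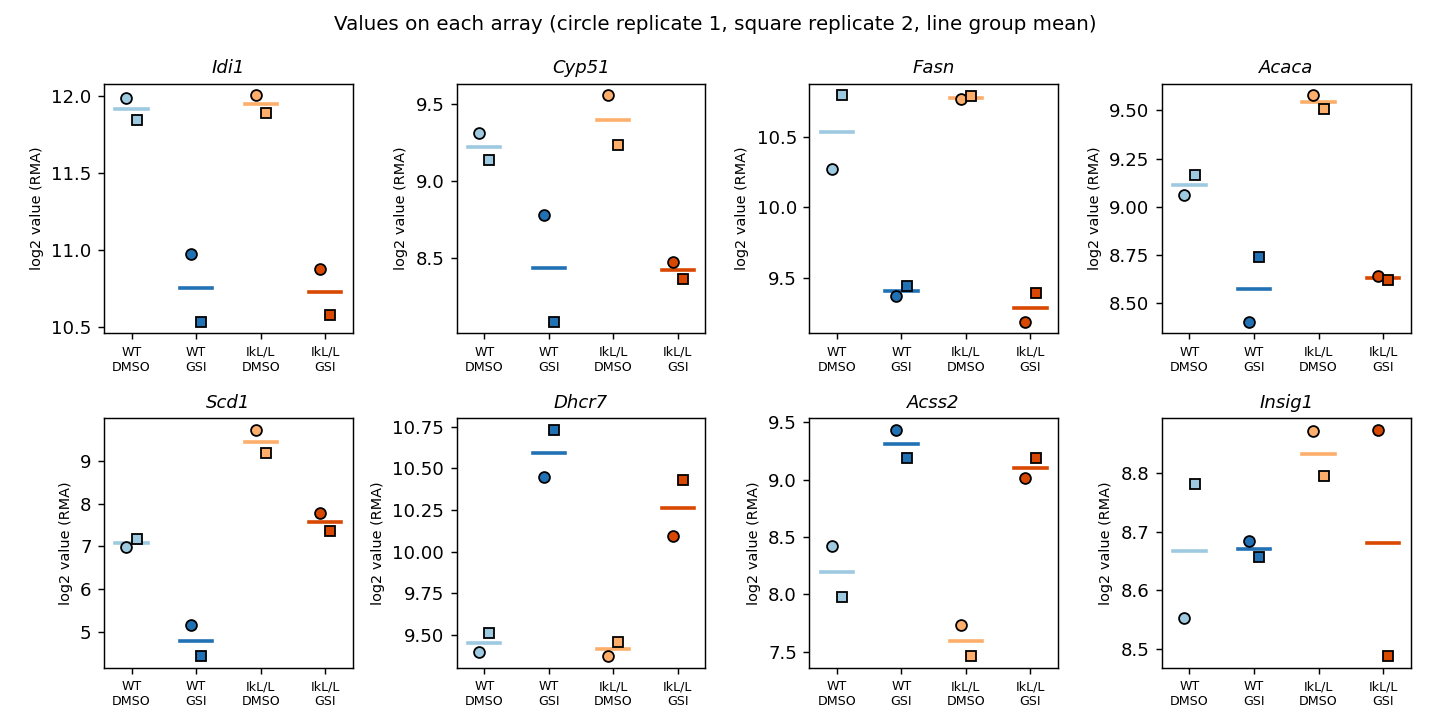
Log2 level (y axis) of Idi1, Cyp51, Fasn, Acaca, Scd1, Dhcr7, Acss2 and Insig1 on each of the 8 arrays by group (x axis); circles are replicate 1, squares replicate 2 and lines the group means. Idi1, Cyp51, Fasn, Acaca and Scd1 drop from DMSO to GSI in each genotype, Dhcr7 and Acss2 climb, Insig1 stays between 8.49 and 8.87, and Scd1 alone stands higher in IkL/L under both treatments.

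None of the 6 genes of the SREBP system passed in the average, in WT or in IkL/L by limma; 1, 0 and 0 of them had an unadjusted p below 0.05. Srebf1, which encodes SREBP-1, had group means of 10.15 (DMSO) and 10.23 (GSI) in WT and of 10.35 and 10.05 in IkL/L, and an average difference of -0.11 (SE 0.17, adjusted p = 0.713). Srebf2, which encodes SREBP-2, had -0.16 (SE 0.15), and Scap, which escorts the SREBPs, -0.26 (SE 0.14). Insig1, a retention protein that is itself a known SREBP target, had -0.07 (SE 0.14, adjusted p = 0.782), and Insig2 0.24 (SE 0.15). Stard4, a cytosolic sterol carrier, had -0.41 (SE 0.14, adjusted p = 0.0652). The arrays measure transcripts and so carry no value for the cut, nuclear forms of the SREBPs.

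Of the 4 genes of acetyl-CoA supply and fatty acid synthesis 2 fell, 1 rose and Acly did not pass. Fasn, the fatty acid synthase, was at 10.27 and 10.80 under DMSO against 9.37 and 9.44 under GSI in WT, and 10.77 and 10.79 against 9.19 and 9.39 in IkL/L. Its GSI arrays were all below its DMSO arrays. Fasn fell by 1.31 in the average (SE 0.14, adjusted p = 0.00063), by 1.13 in WT (adjusted p = 0.0201) and by 1.49 in IkL/L (adjusted p = 0.0026), and it has 1 probe set. Acaca, the acetyl-CoA carboxylase that feeds it, was at 9.06 and 9.17 under DMSO against 8.40 and 8.74 under GSI in WT, and 9.58 and 9.50 against 8.64 and 8.62 in IkL/L. It fell by 0.73 in the average (SE 0.13, adjusted p = 0.00502), with no overlap between treatments.

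Acss2 rose while Fasn and Acaca fell. It was at 8.42 and 7.97 under DMSO against 9.43 and 9.19 under GSI in WT, and 7.74 and 7.46 against 9.01 and 9.19 in IkL/L. Every GSI array was above every DMSO array, and the IkL/L DMSO arrays were the lowest. Acss2 rose by 1.31 in the average (SE 0.16, adjusted p = 0.000893), by 1.11 in WT (adjusted p = 0.0275) and by 1.504 in IkL/L (adjusted p = 0.00358). Acly, which makes acetyl-CoA from citrate, had -0.19 (SE 0.08, adjusted p = 0.155).

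Among the 7 desaturases and elongases Scd1 fell and the other 6 did not pass. Scd1, which introduces the first double bond into saturated fatty acids, was at 6.99 and 7.18 under DMSO against 5.16 and 4.43 under GSI in WT, and 9.72 and 9.17 against 7.77 and 7.37 in IkL/L. Within each genotype the GSI arrays were lower, and the IkL/L GSI arrays were still above the WT DMSO arrays. Scd1 fell by 2.08 in the average by its brightest probe set (SE 0.21, adjusted p = 0.000495 by limma). That probe set fell 4.90-fold in WT (adjusted p = 0.00943) and 3.67-fold in IkL/L (adjusted p = 0.0047). A dimmer probe set had a difference of -1.09 in the average and fell less in WT than in IkL/L. The WT GSI values of the brightest probe set lie below the medians of their arrays, 5.29 and 5.32. The table carries no detection calls, so whether they stand above background was not tested. Its WT call was lost without WT DMSO replicate 1 (adjusted p = 0.0652) or WT DMSO replicate 2 (0.0519), and its IkL/L call without IkL/L GSI replicate 2 (0.0527); over the alternatives the adjusted p ranged from 0.000194 to 0.0786 in WT and from 9.26e-05 to 0.0527 in IkL/L.

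The desaturase Scd2, far brighter than the median gene, had group means of 12.94 (DMSO) and 12.71 (GSI) in WT and of 12.85 and 12.75 in IkL/L and a difference of -0.16 (SE 0.12, adjusted p = 0.399). Fads2, which acts on polyunsaturated fatty acids, had -0.45 (SE 0.19), and its partner Fads1 had 0.08. The elongases were split in sign: Elovl6, which lengthens palmitate, had 0.32 (SE 0.11, adjusted p = 0.0636), Elovl5 0.17 (SE 0.07) and Elovl1 -0.15. These values are differences on the log2 scale, and none passed.

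Neither of the cholesterol exporters passed by its brightest probe set in the average, in WT or in IkL/L by limma; 1, 0 and 1 of them had an unadjusted p below 0.05. The value of Abca1 on each array is given because its replicates lay far apart, which was seen in the data. It was at 6.12 and 8.25 under DMSO against 6.44 and 8.18 under GSI in WT, and 6.17 and 6.44 against 8.28 and 7.45 in IkL/L. The WT replicates differed by more than the treatments, while in IkL/L both GSI arrays were above both DMSO arrays; the average difference was 0.84 (SE 0.52, adjusted p = 0.318). Abcg1 had an average difference of 0.64 (SE 0.22, adjusted p = 0.0782). The mean of a list of 15 myeloid and dendritic markers was 5.29 and 4.97 under DMSO against 5.69 and 5.45 under GSI in WT, and 5.44 and 5.51 against 6.86 and 6.69 in IkL/L. Of these 15 markers 8 rose in the average, 2 in WT and 8 in IkL/L, where 10.8%, 2.31% and 7.70% of all genes rose. The part of these markers in the exporters' values was not tested.

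**Figure D3:**
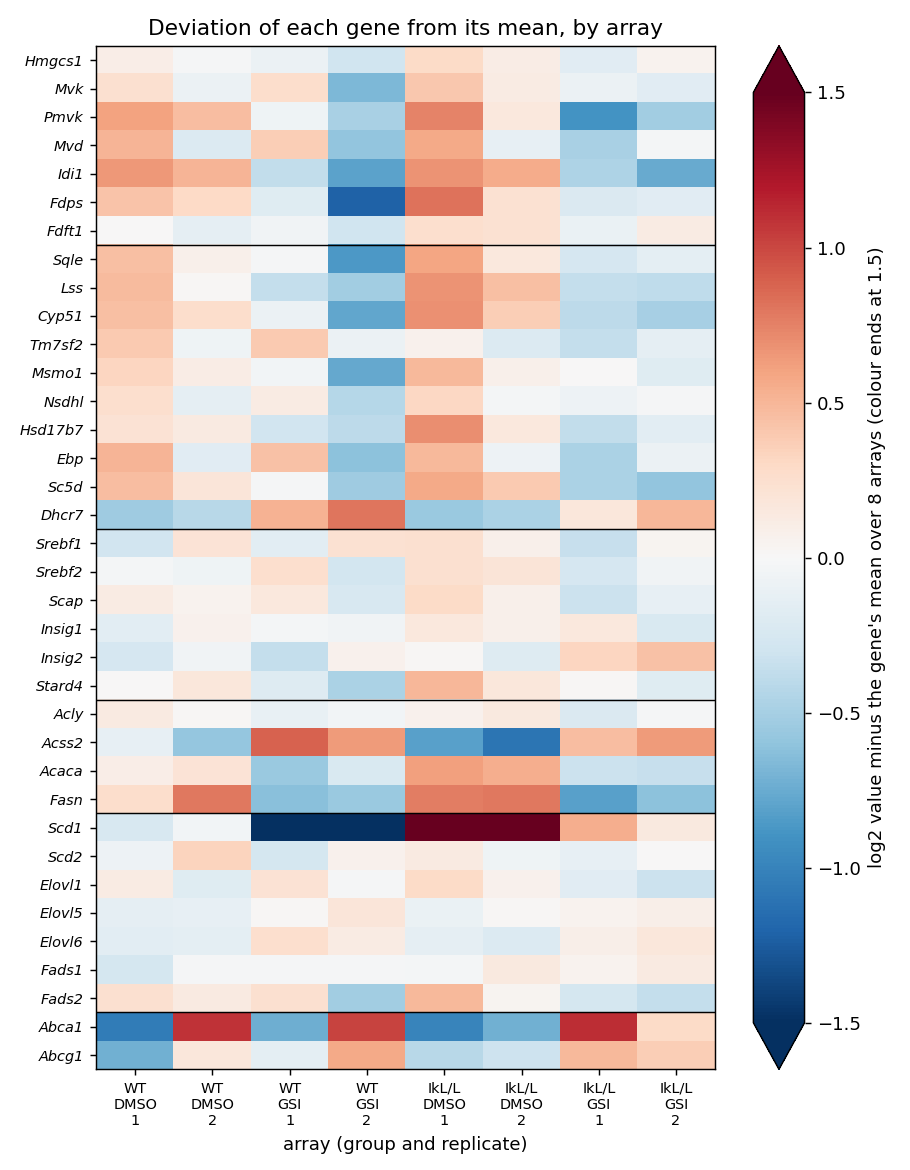
Log2 level minus the gene's mean over the 8 arrays (colour, ends at 1.5 in either direction) for the 36 genes (rows, by role, lines between roles) on each array (columns). Most mevalonate and sterol genes are lower on the 4 GSI arrays, Dhcr7 and Acss2 are higher there, and WT GSI replicate 2 is the lowest array for Fdps, Ebp, Mvd, Mvk and Sqle.

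The second question was whether the response differed between the genotypes. For this the interaction, the IkL/L response minus the WT response, was tested for each gene, and none of the 36 passed by limma; none had an unadjusted p below 0.05. Over all genes 0.0440% passed, and 1089 of 18193 had an unadjusted p below 0.05 by limma. The median interaction of the members was -0.12, beside -0.06 for all genes. It was below 0 in 25 of 36 members and in 10802 of all 18193 genes, so most genes leaned the same way. The larger IkL/L count of falling genes given above is therefore not shown to be a difference between genotypes. In 32 of the 36 genes the response had the same sign in WT and IkL/L, with 24 below 0 and 8 above. The smallest p belonged to Elovl1, an elongase of very long chains, which read 9.69 and 9.38 under DMSO against 9.78 and 9.54 under GSI in WT, and 9.84 and 9.63 against 9.39 and 9.24 in IkL/L (interaction -0.55, SE 0.27, adjusted p = 0.855 by limma). Next was Insig2, at 8.26 and 8.46 under DMSO against 8.16 and 8.58 under GSI in WT, and 8.53 and 8.32 against 8.83 and 8.95 in IkL/L (0.46, SE 0.29, adjusted p = 0.874 by limma). For Scd1 the interaction was 0.42 by its brightest probe set (SE 0.42, adjusted p = 0.935 by limma). A dimmer probe set of Scd1 leaned the other way, falling less in WT than in IkL/L.

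The third question was whether the genotypes differed under the same treatment. Scd1 was the only member that passed: it was 5.14-fold higher in IkL/L than in WT under DMSO (log2 difference 2.36, SE 0.30, adjusted p = 0.00859) and 6.85-fold higher under GSI (2.78, SE 0.30, adjusted p = 0.00373). The IkL/L arrays were above the WT arrays under each treatment. This 1 of 36 (2.78%) stands beside 0.709% of all genes higher under DMSO and 0.945% under GSI, while 1.03% and 0.517% of all genes were lower; no member was lower. At an unadjusted p below 0.05 by limma there were 3 members under DMSO and 2 under GSI, beside 1854 and 1946 of all 18193 genes. The median genotype difference of the members was 0.11 under DMSO and -0.0011 under GSI, beside 0.03 and -0.04 for all genes. The DMSO call was lost without WT DMSO replicate 1 (2.26, adjusted p = 0.063), WT DMSO replicate 2 (2.46, adjusted p = 0.0602) or IkL/L DMSO replicate 1 (2.09, adjusted p = 0.0873), within a range of 0.000204 to 0.0873 over the alternatives. The GSI call held without each of the 8 arrays in turn.

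A second, dimmer probe set of Scd1 gave smaller genotype differences and a smaller GSI response, -1.09 in the average beside -2.08. It was at 5.11 and 5.05 under DMSO against 4.66 and 4.32 under GSI in WT, and 6.61 and 6.40 against 5.06 and 4.75 in IkL/L. It thus fell less in WT than in IkL/L, the reverse of the brightest probe set. It was higher in IkL/L under DMSO (1.43, adjusted p = 0.0188 over all probe sets), but under GSI the difference was 0.41 (adjusted p = 0.553). Most of its values lie at or below the array medians. Ikzf1 itself ranged from 11.95 to 12.18 on the WT arrays and from 11.14 to 11.75 on the IkL/L arrays; the sources used here do not say whether its probes fall within the region changed in IkL/L, so this checks nothing about the allele.

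The choice of probe set mattered for this pathway. The 36 genes have 86 probe sets, 27 genes having more than 1. With every probe set tested as a feature, 24 of the 86 fell in the average (27.9%, against 11.4% of all 34945) and 5 rose, where 7.79% of all rose. At least 1 probe set fell in 15 genes and rose in 3, and in no gene did probe sets pass in both directions. Hmgcs1, Acly, Stard4, Scd2 and Fads2 did not pass by their brightest probe set but had a dimmer one that fell. For Hmgcs1 the 3 that fell had differences of -0.81, -0.81 and -1.30 (adjusted p = 0.00365, 0.0043 and 0.00403), beside -0.25 for the brightest. That of Stard4 had -1.25 (adjusted p = 0.00231), and those of Acly -0.69 and -1.12 (adjusted p = 0.0143 and 0.0158).

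The most strongly shifted Hmgcs1 probe set read 9.88 and 9.85 under DMSO against 8.83 and 8.02 under GSI in WT, and 9.88 and 9.63 against 8.76 and 8.43 in IkL/L, so that the treatments did not overlap. Other genes had probe sets that disagreed in size or in sign. Lss had -0.22 and -0.23 beside -0.81, Sc5d -0.15 and 0.05 beside -0.80, Fdps 0.08 beside -0.885 and Acaca -0.17 beside -0.73. With the mean over a gene's probe sets, the calls of Fdps and Sc5d in the average were lost. Probe sets agreed in direction for Idi1 (-1.19 and -0.90), Cyp51 (-0.88, -0.83 and -0.49) and Acss2 (1.31, 1.00 and 0.56). A dimmer probe set of Abcg1 rose by 0.84 (adjusted p = 0.0488). The brightest probe sets of Fdft1, Acly, Elovl1, Elovl5 and Hsd17b7 end in _x_at, the platform's mark for probes that can also match other transcripts, and their values are uncertain for that reason. Dimmer Hsd17b7 probe sets without that mark had differences of -1.11 and -0.85 (adjusted p = 0.0108 and 0.0287 by limma over all probe sets). The dimmest Hsd17b7 probe set had -0.02 and did not pass.

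**Figure D4:**
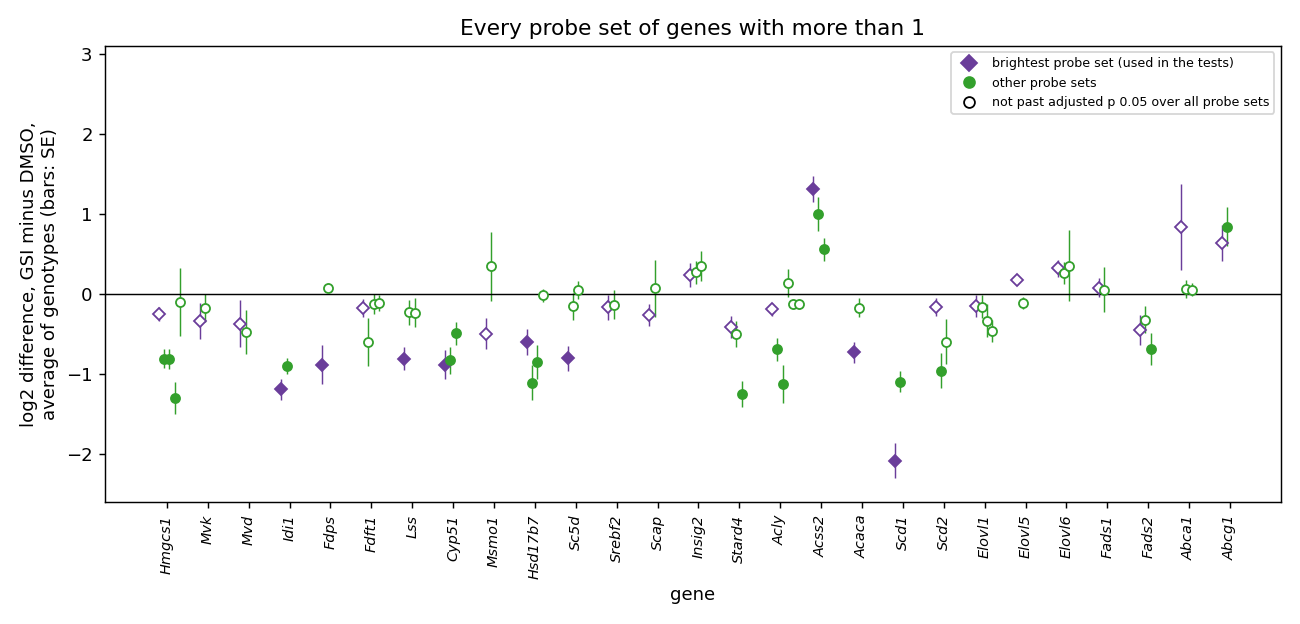
Average difference between GSI and DMSO in log2 units (y axis) for every probe set of the 27 genes with more than 1 (x axis); diamonds are the brightest probe set, circles the others, and filled symbols passed an adjusted p of 0.05 over all probe sets. The diamond of Hmgcs1 lies near 0 above 3 filled circles, and no gene has filled symbols on both sides of 0.

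The arrays differed in ways that bear on these genes. The median gap between the replicates of a group was 0.41 for the members in WT GSI, beside 0.22 for all genes, and 0.19 to 0.21 for the members in the other groups. In WT GSI 25 of 36 members were higher on replicate 1 and 3 lay more than 1 log2 unit apart. Replicate 1 was higher for 29 members in IkL/L DMSO, 22 in WT DMSO and 14 in IkL/L GSI. The median of replicate 1 minus replicate 2 in IkL/L DMSO was 0.21 for the members and 0.06 for all genes. The mean of 15 stromal markers was 6.78 and 6.03 under DMSO against 7.41 and 5.81 under GSI in WT, and 7.10 and 6.19 against 7.15 and 6.69 in IkL/L, with replicate 1 first; none of them passed in the average by limma, and 0 had an unadjusted p below 0.05. With that mean as a covariate 18 members were lower and 6 higher, where 10 and 2 were without it; over all genes 17.8% were then lower and 15.7% higher, beside 12.5% and 10.8%. GAPDH controls read at the 3' end exceeded those at the 5' end, a measure of RNA length, by 1.71 and 2.12 under DMSO against 2.20 and 3.08 under GSI in WT, and 1.87 and 2.47 against 3.09 and 3.03 in IkL/L. With it as a covariate Idi1, Acaca, Fasn and Scd1 still fell and Acss2 and Dhcr7 still rose, while Pmvk, Fdps, Lss, Cyp51, Hsd17b7 and Sc5d did not pass; over all genes 7.90% were then lower and 12.3% higher. Within each genotype this measure was higher on both GSI arrays than on both DMSO arrays. The fit therefore cannot fully separate it from the treatment, and the lost calls do not show which of them moved those genes. Without WT GSI replicate 1, the array with the highest stromal mean, 16 members fell, with Hmgcs1, Mvk, Sqle, Msmo1, Stard4 and Fads2 added, beside 14.5% of all genes.

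The labelled cell type was checked against its markers. The mean of 7 measured DN3 markers was between 11.13 and 11.51 on the DMSO arrays and between 10.79 and 10.94 on the GSI arrays, far above the array medians of 5.25 to 5.33. Il2ra, the gene of the sort marker CD25, was at 11.57 to 12.03 under DMSO and 9.42 to 9.73 under GSI. Il2ra and Ptcra were the DN3 markers that fell in the average, and the other 5 did not pass; in IkL/L alone Rag1 rose by 0.88 and Rag2 by 0.73, and the median of the 7 was 0.22 there. Of 7 B lineage markers Cd79b and Vpreb1 rose in the average (by 1.28 and 1.80), and of 3 markers of later thymocytes Cd4 rose (by 0.77). Over all genes 12.5% fell and 10.8% rose in the average. Igll1 also rose in IkL/L (by 0.66), where 7.70% of all genes rose. The IkL/L GSI replicates differed in the mean of the later thymocyte markers, at 7.98 on replicate 1 and 6.53 on replicate 2. The other arrays were at 6.13 to 6.42. On those IkL/L GSI replicates Cd8a was at 8.43 and 6.31, and Cd8b1 at 7.62 and 5.91. The part of these shifts in the members' values was not tested.

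Other genes of the same pathways, from lists chosen for their function, did not all move with the members. Of 14 measured genes of isoprenoid and sterol handling 3 rose (21.4%, against 10.8% of all genes) and none fell (against 12.5%). Their median was 0.05. Npc1, which moves cholesterol out of lysosomes, was at 8.27 and 8.58 under DMSO against 9.58 and 9.51 under GSI in WT, and 7.27 and 7.59 against 9.28 and 9.47 in IkL/L, and rose by 1.53 in the average (SE 0.14, adjusted p = 0.000399). All GSI arrays were above all DMSO arrays. Npc2, its partner in the lysosome, rose by 0.66 (SE 0.08, adjusted p = 0.000814), and Mylip, a ubiquitin ligase controlled by liver X receptors, rose by 0.70 (SE 0.19, adjusted p = 0.0306). Of 19 measured further genes of fatty acid synthesis 2 rose (10.5%, near the 10.8% of all genes) and 5 fell (26.3%, against 12.5%). Their median was -0.10. Hsd17b12, a reductase of fatty acid elongation, fell by 1.41 (SE 0.17, adjusted p = 0.001), Mid1ip1, which activates acetyl-CoA carboxylase, fell by 0.98 (SE 0.18, adjusted p = 0.00587), and Fads3 rose by 1.38 (SE 0.27, adjusted p = 0.00789).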

How the data were processed

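RNA of sorted DN3 cells was labelled in a 2-cycle protocol and hybridised, per the labels' protocols. The deposited values are log2 expression made by the authors with RMA, per the submitters' processing notes; its version, and whether other arrays were part of that summary, are not given in the sources used here. RMA sets every array to 1 common distribution of values.

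Of 45101 probe sets, 64 controls, 932 with several genes and 9160 with no gene were left out, and 1 probe set stood for each of 18193 genes. Values ran from 2.32 to 14.61, with array medians of 5.25 to 5.33, and replicates correlated at r = 0.975 to 0.993. Differences were fitted with limma 3.58.1 (R 4.3.3; 4 group terms, eBayes with a trend, 4 residual and 4.11 prior degrees of freedom, two-sided) and adjusted over all genes with Benjamini-Hochberg. With 2 arrays per group, their number limits how precise each value is. The fit was tested on simulated data. Members, gene lists and marker lists were chosen with earlier results of these data known.

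Array values were given for members called in the average (up to 4 per role, by size), for members called in a genotype contrast or in the interaction, and for the 2 smallest p where none was called; of the other pathway genes, the 3 largest called changes per list were named. Alternatives were a replicate block, the mean over probe sets, every probe set, only genes above the median level, a second quantile normalization, median centring, no trend, only the arrays compared, stromal and GAPDH covariates, and leaving out each array. A fit without both WT arrays numbered 1 was chosen after seeing the data.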

Additional observations from a re-analysis of the deposited data

How the results depend on the processing

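Counts are of members past an adjusted p of 0.05 by limma. In the average of both genotypes, where 10 fell and 2 rose, the stromal covariate gave 18 and 6 (17.8% and 15.7% of all genes), the GAPDH covariate gave 4 lower (7.90%), and leaving out 1 array gave 8 to 16 lower. In WT, where 3 fell and 2 rose, the counts were 6 lower with the replicate block (6.51% of all genes), 10 lower with the stromal covariate (10.2%), 1 higher with the mean over probe sets (1.34%) and 1 higher without both WT arrays numbered 1 (0.583%; chosen after seeing the data). Fitted on the 4 WT arrays alone they were 0 lower and 0 higher, with 7 and 2 at an unadjusted p below 0.05, but that fit called 1 of all 18193 genes, so it says little about the members; leaving out 1 array gave 0 to 7 lower and 0 to 2 higher. In IkL/L, where 8 fell and 2 rose, they were 5 lower with the mean over probe sets (8.96% of all genes), 16 lower and 4 higher with the stromal covariate (15.6% and 13%), 4 lower and 1 higher with the GAPDH covariate (6.79% and 10.8%), 4 higher fitted on the IkL/L arrays alone (11.8%) and 4 higher without both WT arrays numbered 1 (11.8%). Leaving out 1 array gave 2 to 8 lower and 1 to 2 higher. For IkL/L against WT under DMSO, leaving out 1 array gave 0 to 1 higher members, and without both WT arrays numbered 1 there was 1 lower member, Abca1 (1.28% of all genes). Under GSI the GAPDH covariate gave 3 higher members, Scd1, Fdps and Sqle (3.08%). The cause of these shifts was not tested, and fewer arrays in some fits cannot be told apart from which array was left out. No called result reversed its direction under these alternatives, and the other 185 counts stayed within 1.5 times the original. A group left with 1 array was assumed to vary like the others.

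The deviations of same-numbered arrays from their group means correlated at r = 0.71 between WT DMSO and WT GSI, 0.58 between WT DMSO and IkL/L DMSO and 0.56 between WT GSI and IkL/L DMSO, but at -0.11, 0.02 and -0.01 for the 3 pairs with IkL/L GSI, so the numbers were not taken to pair the samples. With the replicate block the average had 14 lower and 3 higher members (14.5% and 13.4% of all genes) and IkL/L 9 and 3 (11.6% and 10.4%).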

Other observations

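Genes that burn fatty acids were looked at beside those that make them. Of 14 measured genes of fatty acid oxidation, 3 rose with GSI in the average and none fell, with a median log2 difference of 0.09. Acadl, which opens the oxidation of long-chain fatty acids, was at 10.78 and 10.51 under DMSO against 12.08 and 11.28 under GSI in WT, and 9.99 and 9.94 against 10.92 and 10.72 in IkL/L. Within each genotype both GSI arrays were above both DMSO arrays, and Acadl rose by 0.94 (SE 0.18, adjusted p = 0.00645 by limma). Slc25a20, which carries acylcarnitines into mitochondria, rose by 0.66 (SE 0.14, adjusted p = 0.0107 by limma), and Cpt1a, which makes those acylcarnitines, rose by 0.58 (SE 0.14, adjusted p = 0.0214 by limma). The share that rose, 3 of 14, stands beside 10.8% of all genes, and the absence of falling ones beside 12.5%.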
